A study of Mus musculus with 6 samples.

Results

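Circular RNAs (circRNAs) are transcripts closed into a ring by back-splicing, and a gene that gives rise to one is called its host. The circRNAs described here came from host genes of cilia, centrosomes and microtubule motors in mouse hippocampus. A circRNA was taken when the table listed a single host identifier whose GENCODE vM21 symbol began with Kif, Dnah, Ift, Cep, Bbs, Nphp, Spag or Cfap followed by a digit, or with Dync. This rule reads gene names only and found 151 circRNAs of 51 hosts, out of 10652 circRNAs in the table and out of 9208 circRNAs and 3675 hosts with a single identifier. The samples were hippocampi of adult male C57BL/6J mice, 8 to 10 weeks old when purchased. The 3 CUS libraries came from mice under chronic unpredictable stress, in which mild stressors in random order (among them food or water deprivation, restraint, cold swimming, tail nipping and cage tilting) were given 2 to 3 times a day for 4 weeks. The 3 Control libraries came from mice assigned to the control group, and the study asked which circRNAs differ with stress. Whether each library came from 1 mouse is not stated in the labels, so the p-values measure the spread between these libraries only, which may be partly technical. In bulk tissue, fewer cells of a type and less RNA per cell cannot be told apart.

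A cilium is built on a centriole and grows by intraflagellar transport, in which kinesin-2 motors carry trains outward and cytoplasmic dynein 2 brings them back. Most neurons and astrocytes carry 1 primary cilium that does not beat and receives signals, whereas ependymal cells of the ventricle wall carry many beating cilia driven by axonemal dyneins. The same motor families also move vesicles, mitochondria and endosomes along axons and dendrites. A circRNA level does not measure the linear mRNA or the protein of its host, and nothing below is a measure of cilia or of transport.

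A level is 10 to the deposited log10 value, on the authors' scale, and deposited zeros are kept as 0. The number of reads behind a level is not known from the table, so 0 does not show absence and no counting interval is given. Between 3991 and 4606 circRNAs were above 0 per library, and library sums lay between 1990255 and 2050720. Of 9 neuronal marker genes 7 were hosts. Syt1, Grin2b, Grin2a and Camk2a were above 0 in all 6 libraries, Map2 in 5, Rbfox3 in 4 and Nrgn in 1, while Snap25 and Slc17a7 had no ring. Of 6 microglial marker genes none was a host, and among the choroid plexus markers only Trpm3 of 10 was one. The table gives no lengths of rings, and it is not stated whether a level scales with length, so the order of hosts below is an order of deposited levels and not of molecules.

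The members took a small and similar part of both groups. Their summed level was 18582, 24307 and 18217 across Control replicates 1 to 3, then 27943, 19992 and 14045 in CUS replicates 1 to 3. The highest and the lowest of the 6 sums were both CUS libraries, and the groups overlapped. As a share of each library's level this was 0.999% ± 0.161 in the Control libraries and 1.03% ± 0.347 under CUS (SD, n = 3 each). CUS replicate 3 held 37 member circRNAs above 0, against 52 to 57 in the other 5 libraries. That was 0.866% of the circRNAs detected in that library, against 1.20% to 1.38% elsewhere.

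By family, 34 circRNAs came from 15 kinesin (Kif) hosts, 32 from 14 centrosomal (Cep) hosts, 21 from Dnah9 alone, 18 from 4 cytoplasmic dynein (Dync) hosts and 13 from 3 BBSome (Bbs) hosts. A further 10 came from 6 Cfap hosts, 9 from 4 intraflagellar transport (Ift) hosts, 8 from 3 Spag hosts and 6 from Nphp4. GENCODE lists 165 protein-coding genes under the name rule, so 30.9% of them were hosts. Hosts of any kind numbered 3675, where GENCODE lists 21951 protein-coding genes, and gene length was not allowed for. Dnah9, Bbs9, Spag9 and Dync1i1 together carried 44.3% of the members' level. Of the 151 circRNAs, 148 (98.0%) were exonic and 3 intronic. The share of exonic rings was 95.0% among all circRNAs with a single host identifier. The median host had 2 circRNAs, as had the median over all hosts, and 20 of the 51 had 1.

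**Figure D1:**
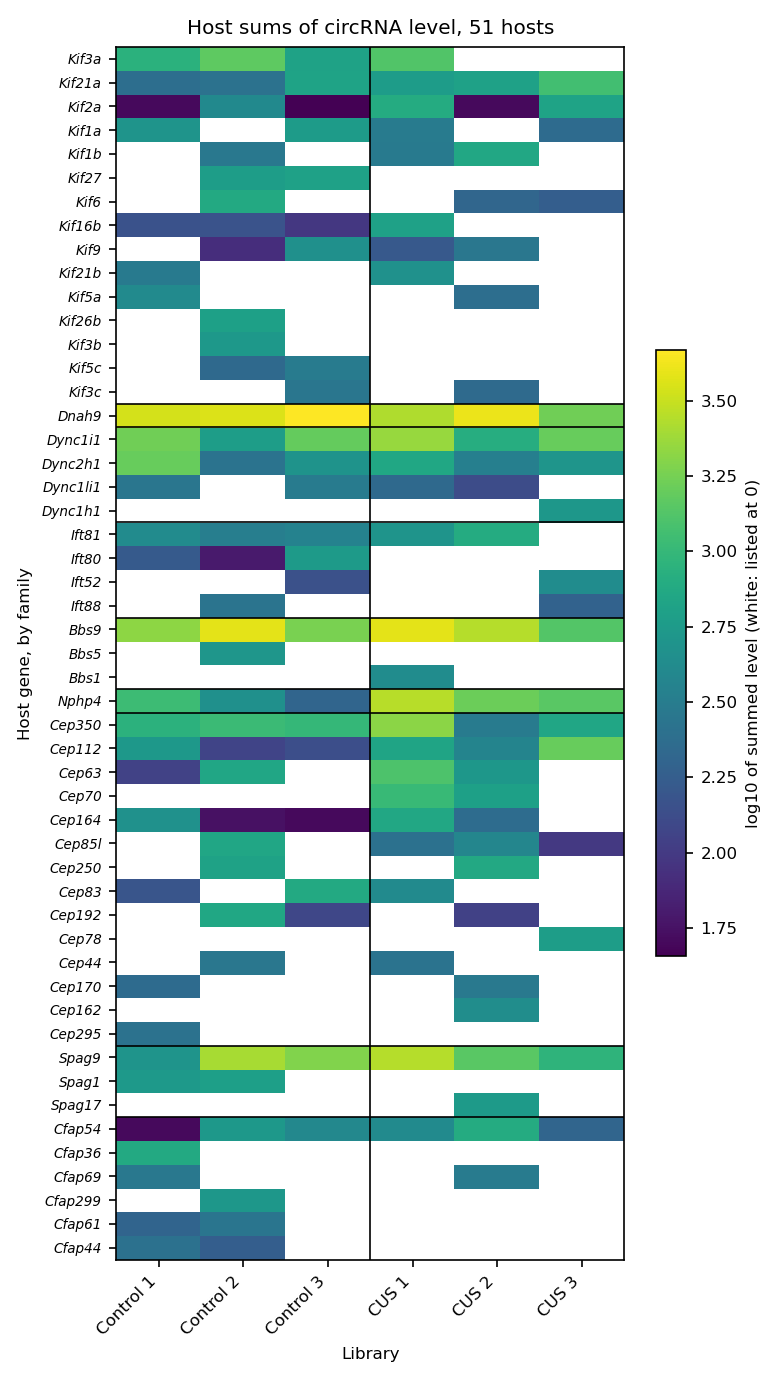
Summed circRNA level of each of the 51 hosts (rows, grouped by family with black lines) in the 6 libraries (columns). The colour is log10 of the summed level and white means listed at 0. Dnah9 and Bbs9 are high in every library, and 26 of the 51 hosts are above 0 in only 1 or 2 libraries.

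Promoters of the hosts were read from RefSeq (GRCm38.p6) to show a sequence feature that the name rule did not use. Many ciliary genes carry an X-box, the site bound by RFX transcription factors, and it was searched as GTNNCCNNNGNAAC or, on the other strand, GTTNCNNNGGNNAC, within 250 bases before to 50 after each annotated start. Symbols of 42 of the 51 hosts had a promoter there. A match lay in a promoter of 8 of these 42 (19.0%), against 3.48% of 2788 hosts of any kind and 2.49% of all 27025 genes with a promoter. The 8 were Cep112, Cep44, Cep83, Nphp4, Bbs1, Cfap44, Cfap61 and Kif9. This 1 motif was chosen, and its letters set, after promoters of these hosts including Cep112 had been read, so the shares are a description with no test, and a match is not a bound site. Cep112 and Nphp4 are shown because, of Dnah9, Kif3a, Cep112 and Nphp4, they were the hosts with a match. All of these hosts were named with earlier results of these data known. The sequences run 5′ to 3′ on the plus strand in lower case with the matches in capitals, for Cep112 at chr11:108425016-108425315 and for Nphp4, at a start inside the annotated gene, at chr4:152477892-152478191.
Cep112 promoter: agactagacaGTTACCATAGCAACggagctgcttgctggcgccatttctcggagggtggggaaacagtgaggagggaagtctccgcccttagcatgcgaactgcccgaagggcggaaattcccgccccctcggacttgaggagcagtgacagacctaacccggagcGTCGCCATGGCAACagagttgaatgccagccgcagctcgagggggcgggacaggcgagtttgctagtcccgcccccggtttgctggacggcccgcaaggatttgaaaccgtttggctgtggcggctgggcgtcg
Nphp4 promoter: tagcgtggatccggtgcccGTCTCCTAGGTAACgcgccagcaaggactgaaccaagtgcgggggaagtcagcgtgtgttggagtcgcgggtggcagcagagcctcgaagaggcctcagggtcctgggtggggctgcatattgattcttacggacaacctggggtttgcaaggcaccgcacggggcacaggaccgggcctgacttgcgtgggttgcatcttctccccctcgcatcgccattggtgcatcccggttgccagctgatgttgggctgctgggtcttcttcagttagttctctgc
Cep112 held 2 matches in this window and Nphp4 held 1. Nphp4 had 3 promoters that were searched, and only the 1 shown held a match. The sequences of the rings themselves are not shown, because the table was used without circRNA coordinates.

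Groups were compared with limma on log2(level + 45.5), for circRNAs or host sums above 0 in at least 3 of the 6 libraries, with Benjamini-Hochberg adjustment over all that were tested. No circRNA of the 3896 tested passed an adjusted p of 0.05 (0%), and no host of the 2151 tested did (0%). At an unadjusted p under 0.05 there were 234 circRNAs and 126 hosts. Of the members, 38 circRNAs and 25 hosts could be tested. A ring or host at 0 in a whole group could be tested only with all 3 libraries of the other group above 0. Its p-value is then no added support for that pattern. The lowest adjusted p in limma was 0.577 among member circRNAs and 0.708 among member hosts. Every difference below is therefore one that did not pass.

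Of the 25 member hosts, 13 were fitted higher and 12 lower in CUS, with a median log2 difference of 0.03 against -0.05 over all hosts tested. At an unadjusted p under 0.05, Nphp4 was the 1 higher host (4%), where 2.56% of all hosts tested were called higher, and Ift80 and Kif3a were the 2 lower ones (8%), where 3.3% were called lower. All 3 CUS libraries lay above all 3 Control libraries for Nphp4 alone (background 5.86%) and below them for Ift80 alone (background 5.53%). Of the 38 member circRNAs, 15 were fitted higher and 23 lower, with a median log2 difference of -0.36 against -0.12 over all tested. At that p, 1 Cep112 circRNA (2.63%) was higher, where the background was 2.75%, and 1 Kif3a circRNA (2.63%) was lower, where it was 3.26%. All 3 CUS libraries lay above all 3 Control libraries for 2 circRNAs (5.26%, background 5.78%), of Cep112 and Nphp4, and below them for the 1 of Kif3a (2.63%, background 5.08%). The circRNA shares were at or under the background, and the host shares rest on 1 or 2 hosts each.

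**Figure D2:**
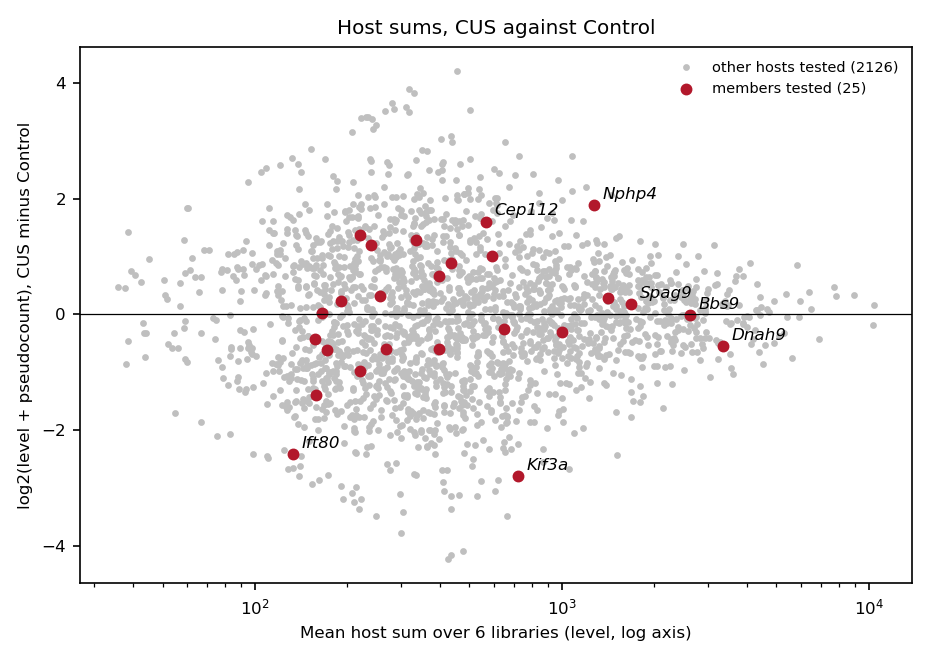
Each point is 1 of 2151 tested hosts, with its mean summed level over 6 libraries on a log axis and its fitted difference in log2(level + 45.5), CUS minus Control. Red points are the 25 tested members. They lie on both sides of 0, with Nphp4 at 1.88 and Kif3a at -2.80, inside the cloud of other hosts.

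Nphp4, a scaffold protein of the ciliary transition zone mutated in nephronophthisis, had higher levels in CUS. Its gene (ENSMUSG00000039577) lies at chromosome 4, 152476706 to 152563183 on GRCm38, and gave 6 exonic circRNAs. The host sum was 1082, 461 and 205 across Control replicates 1 to 3, then 2839, 1641 and 1430 across CUS replicates 1 to 3, so the groups did not overlap. That is 583 ± 451 against 1970 ± 760 (SD, n = 3 each), a 3.38-fold ratio of means. The fitted log2 difference was 1.88 with SE 0.69 (limma, 95% interval 0.49 to 3.28, adjusted p = 0.708). The interval is not adjusted for the number of hosts tested, and Nphp4 had the lowest adjusted p of the member hosts. One circRNA, mmu_circRNA007748, was above 0 in all 6 libraries, at 162, 209 and 205 in the Control libraries and 2155, 406 and 571 under CUS. Its Control values were close together and all 3 CUS values lay above them, with CUS replicate 1 far above the other 2. Without CUS replicate 1 its log2 difference was 1.16 in place of 1.84, and that of the host sum was 1.59. The other 5 circRNAs made up the rest, and no other was above 0 in more than 2 libraries: mmu_circRNA007751 was at 920 in Control replicate 1 and 321 in CUS replicate 3, and mmu_circRNA007747 at 1065 in CUS replicate 2 alone.

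Cep112, a coiled-coil centrosomal protein gene (ENSMUSG00000020728; chromosome 11, 108425192 to 108860615), gave a circRNA listed at 0 in every Control library. Rings above 0 in all 3 CUS and no Control library were 0.66% of the member circRNAs, against 0.69% of all circRNAs. mmu_circRNA002061 was at 557, 215 and 1155 in CUS replicates 1 to 3 (limma adjusted p = 0.577). It could be tested only through these CUS values. No fold is given against a group at 0. Within Cep112 it carried 82.2%, 58.8% and 73.5% of the host sum in CUS. The host sum over 6 circRNAs overlapped between the groups, at 531, 116 and 138 in the Control libraries and 678, 366 and 1571 under CUS. A seventh ring, mmu_circRNA002062, lists a pseudogene, Rpl23a-ps14, beside Cep112 and was not a member. It was above 0 in all 6 libraries, at 451, 75.6 and 721 in the Control libraries and 177, 403 and 57.1 under CUS. With it the log2 difference of the host sum was 0.83 in place of 1.60.

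Kif3a (ENSMUSG00000018395; chromosome 11, 53567379 to 53601967) encodes a motor subunit of kinesin-2, which drives intraflagellar transport outward. Its mmu_circRNA001603 was at 473, 930 and 327 in the Control libraries and listed at 0 in all 3 CUS libraries (limma adjusted p = 0.577). This ring could be tested only through its Control values. Rings above 0 in all 3 Control and no CUS library were 0.66% of the member circRNAs, against 0.88% of all circRNAs. The 2 other rings did not follow mmu_circRNA001603: mmu_circRNA001605 was at 398, 537 and 0 in the Control libraries and 731, 0 and 0 under CUS, and mmu_circRNA001604 at 0, 0 and 327 in the Control libraries and 601, 0 and 0 under CUS. As a result the host sum was 872, 1467 and 654 in the Control libraries and 1333, 0 and 0 under CUS. CUS replicate 1 thus lay above 2 of the 3 Control libraries while the other 2 CUS libraries had none of the 3 rings. Its log2 difference was -2.80 with SE 1.30 (limma adjusted p = 0.753), -1.98 without CUS replicate 2 and -4.44 without CUS replicate 1. In Control replicate 3, mmu_circRNA001603 and mmu_circRNA001604 had the same level, 327, and whether they share reads was not tested.

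**Figure D3:**
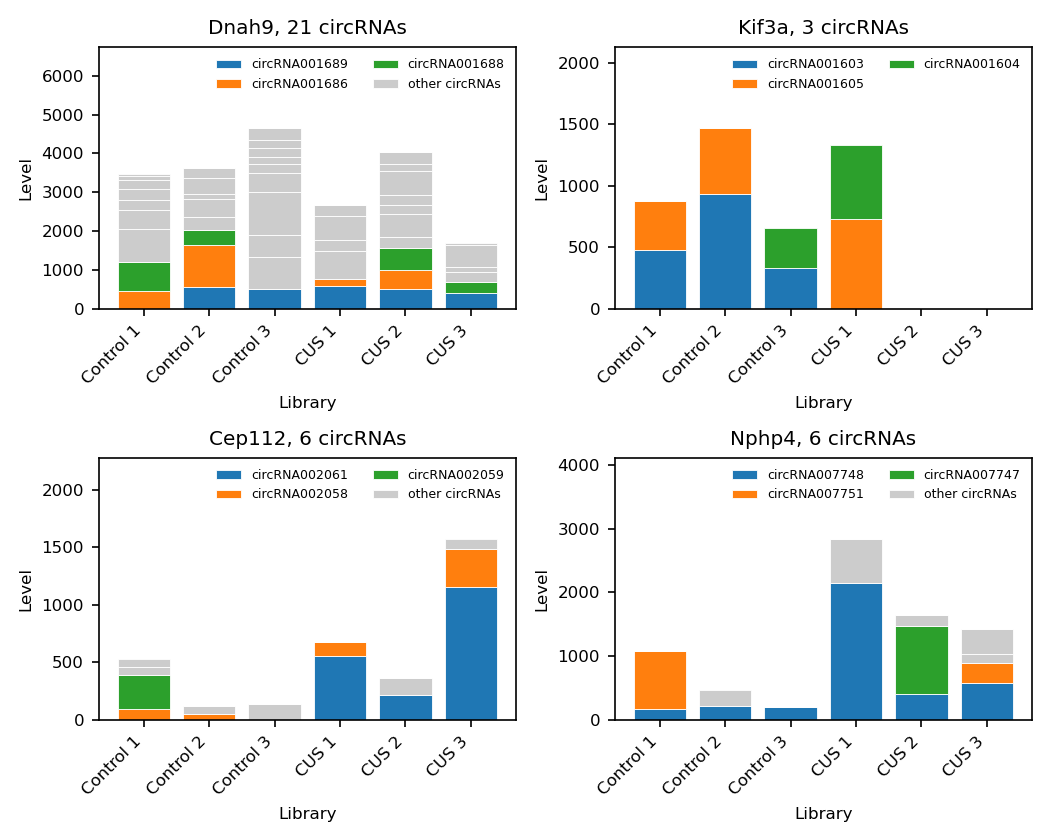
Bars give the summed level per library for Dnah9, Kif3a, Cep112 and Nphp4, split by circRNA, with the 3 circRNAs of highest mean in colour and all others in grey. Kif3a is at 0 in CUS replicates 2 and 3, mmu_circRNA002061 of Cep112 appears only in the CUS bars, and Dnah9 is split over many rings in every library.

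Of the partners of Kif3a in kinesin-2, the motor subunits Kif3b and Kif3c were sparse. Kif3b and Kif3c were singled out as its partners after their values had been seen. Kif3b, which pairs with Kif3a in the ciliary motor, had 1 ring, at 540 in Control replicate 2 and 0 elsewhere. Kif3c, the neuronal alternative partner, was at 277 in Control replicate 3 and 226 in CUS replicate 2 and at 0 elsewhere. Kifap3, the cargo-binding subunit, was at 0, 240 and 575 in the Control libraries and 448, 223 and 1245 under CUS, with overlapping groups.

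Among the other kinesins, Kif21a, which restrains microtubule growth, was above 0 in every library. Its host sum was 241, 260 and 670 in the Control libraries and 587, 640 and 1147 under CUS, with Control replicate 3 above 2 of the CUS libraries. Its ring mmu_circRNA003942 was present in all 6, at 241, 260 and 404 in the Control libraries and 587, 269 and 440 under CUS. Kif2a, a microtubule depolymerase, had its ring mmu_circRNA003094 at 50.7, 411 and 45.2 in the Control libraries and 781, 51.1 and 0 under CUS, a spread as wide within each group as between them. The Kif2a host sum was 50.7, 411 and 45.2 in the Control libraries and 781, 51.1 and 669 under CUS.

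The axonal transport motors were found in scattered libraries. Kif1a, which carries synaptic vesicle precursors, was at 497, 0 and 575 in the Control libraries and 310, 0 and 228 under CUS, from 4 rings each seen in 1 library, the highest being mmu_circRNA000402 at 575. Kif1b, a related motor for vesicles and mitochondria, was at 0, 287 and 0 in the Control libraries and 298, 732 and 0 under CUS, with mmu_circRNA007712 at 541 in CUS replicate 2 alone. Kif16b, a motor of early endosomes, was at 145, 149 and 95.8 in the Control libraries and 643, 0 and 0 under CUS, where mmu_circRNA006385 alone gave 575. None of these motors separated the groups. The other 7 Kif hosts besides the kinesin-2 subunits had host sums of at most 754 in any library.

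Dnah9, a heavy chain of the outer dynein arm that powers ciliary beating, was the host with the most rings and the highest level among the members. It lies at chromosome 11, 65831282 to 66168551 (ENSMUSG00000056752), and its 21 circRNAs rank it 58 by level among 3675 hosts. Its host sum was 3457, 3628 and 4649 in the Control libraries and 2665, 4026 and 1699 under CUS. The mean was 3912 ± 645 in the Control libraries and 2797 ± 1169 under CUS (SD, n = 3 each), and the fitted log2 difference was -0.55 with SE 0.41 (limma adjusted p = 0.917), and CUS replicate 2 lay above 2 of the Control libraries. No single ring led: the highest by mean, mmu_circRNA001689, was at 0, 557 and 503 in the Control libraries and 575, 498 and 410 under CUS and made up between 0% and 24.2% of the sum. Between 6 and 10 of the 21 rings were above 0 in any library, none was above 0 in all 6, and 5 were seen in 1 library only.

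Dnah9 was also the 1 host among 15 axonemal dynein heavy chain genes. The other 14 span 63.5 to 382 kb and have up to 61 to 93 exons in a transcript, against 337 kb and 69 exons for Dnah9. Several of them are thus close to Dnah9 in length and exon number and gave no ring with a single identifier. Apart from Cfap54, which was above 0 in all 6 libraries, the remaining markers of multiciliated ependymal cells were sparse: Foxj1, Hydin, Rsph1, Rsph4a, Ccdc39, Spag16, Dnah6, Dnah11 and Dnah12 were not hosts, and Spef2, Ak7, Drc1, Spag17 and Cfap44 were each above 0 in 1 or 2 libraries. The sum of the 16 listed ependymal markers, of which 7 were hosts, was 4344 to 5841 in the Control libraries and 2188 to 5893 under CUS, and most of it was Dnah9 itself. The part of ependymal cells in the Dnah9 level was not tested.

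**Figure D4:**
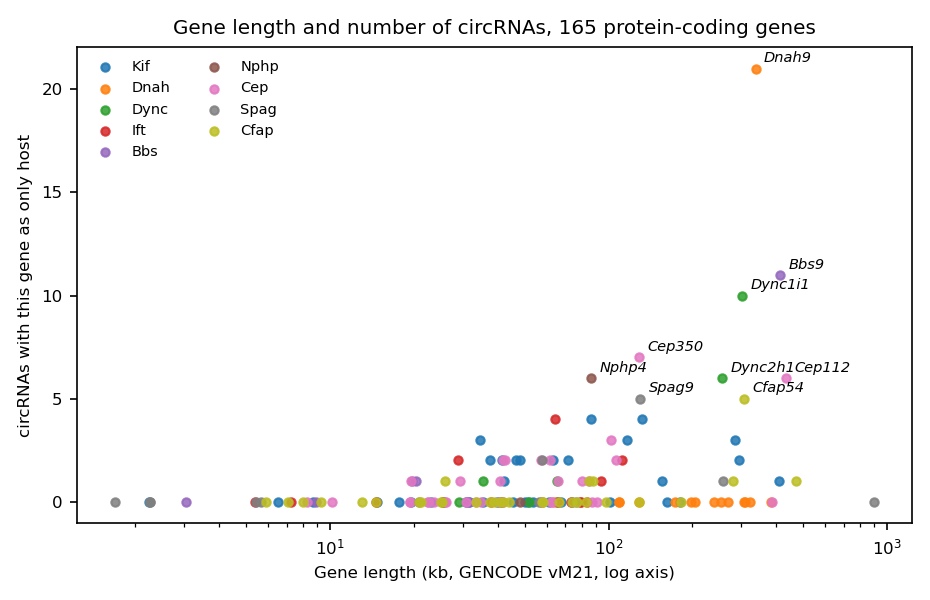
Number of circRNAs with a gene as their only host against gene length on a log axis, for the 165 protein-coding genes under the name rule, coloured by family. Dnah9 stands at 21 circRNAs and 337 kb, while the 14 other Dnah genes lie at 0 circRNAs.

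Across the 51 hosts, longer genes tended to have more rings (Spearman's rho 0.40 for length and 0.34 for the highest exon number of a transcript), as they did over all hosts (0.44 and 0.30). These are descriptions across genes, which are not independent replicates. Among the 8 Bbs genes, Bbs9 at 413 kb was a host of 11 rings and the other 2 hosts, Bbs1 at 19.8 kb and Bbs5 at 20.4 kb, had 1 each.

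Cytoplasmic dynein, the motor toward microtubule minus ends, was represented by 4 hosts. Dync1i1, an intermediate chain that links dynein to dynactin, gave 10 rings and was at 1716, 595 and 1548 in the Control libraries and 2255, 804 and 1587 under CUS. The groups covered similar ranges. Its ring mmu_circRNA008591 was at 1214, 207 and 484 in the Control libraries and 472, 430 and 0 under CUS. Dync2h1, the heavy chain of the motor that returns intraflagellar trains, was at 1593, 262 and 492 in the Control libraries and 710, 336 and 506 under CUS over 6 rings. Its highest ring, mmu_circRNA010354, was at 464, 0 and 247 in the Control libraries and 330, 0 and 0 under CUS. Neither host showed a separation of the groups, and Dync1li1, a light intermediate chain, was at 280, 0 and 311 in the Control libraries and 221, 132 and 0 under CUS. Dync1h1, the heavy chain of the main cytoplasmic motor, was seen in CUS replicate 3 alone, at 525.

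All 4 Ift hosts encode subunits of the intraflagellar transport B complex. Ift80 (chromosome 3, 68892499 to 69004570) was at 169, 63.0 and 569 in the Control libraries and listed at 0 in all 3 CUS libraries (limma adjusted p = 0.722). Ift80 could be tested only through its Control values. Its 2 rings did not occur together, since mmu_circRNA006723 was at 569 in Control replicate 3 alone and the other made up the rest. Ift81, which binds tubulin, was at 425, 330 and 354 in the Control libraries and 498, 777 and 0 under CUS, with CUS libraries both above and below all Controls. Its ring mmu_circRNA008348 was at 150, 330 and 0 in the Control libraries and 422, 0 and 0 under CUS. Ift52 was at 144 in Control replicate 3 and 429 in CUS replicate 3, the latter from mmu_circRNA006486, and Ift88 at 270 in Control replicate 2 and 196 in CUS replicate 3.

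Bbs9, a subunit of the BBSome that carries membrane proteins out of cilia, held 94.3% of the Bbs level. Its host sum was 2105, 3825 and 1833 in the Control libraries and 3841, 2770 and 1351 under CUS, with group means of 2587 ± 1080 and 2654 ± 1249 (SD, n = 3 each). The groups covered the same range. The ring mmu_circRNA010431 was in every library, at 1108, 3136 and 1048 in the Control libraries and 1990, 594 and 1022 under CUS, while 5 of the other 10 were seen in 1 library each. Bbs1 was at 433 in CUS replicate 1 alone and Bbs5 at 514 in Control replicate 2 alone.

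The centrosomal hosts had a summed level of 2641, 4281 and 2051 in the Control libraries and 6710, 4029 and 2968 under CUS, with overlapping groups. Of the 7 tested, 4 were fitted higher and 3 lower. Cep350, which anchors microtubules at the centrosome, gave 7 rings and was at 884, 1061 and 987 in the Control libraries and 2078, 312 and 701 under CUS. The 3 Control values lay within the span of the CUS values. Its ring mmu_circRNA000594 was in every library, at 210, 325 and 95.8 in the Control libraries and 73.7, 210 and 326 under CUS.

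Cep63, needed for centriole duplication, was at 113, 701 and 0 in the Control libraries and 1268, 524 and 0 under CUS, and its ring mmu_circRNA010881 at 113, 701 and 0 and at 1268, 191 and 0. Cep70 was listed at 0 in the Control libraries and at 1032, 624 and 0 under CUS, from rings mmu_circRNA010850 and mmu_circRNA010851. These had the same level, 516, in CUS replicate 1 but were at 398 and 226 in CUS replicate 2. Whether they share reads was not tested. With values in 2 libraries Cep70 was not tested. Cep83, a distal appendage protein, was at 152, 0 and 753 in the Control libraries and 413, 0 and 0 under CUS, with mmu_circRNA001252 at 535 in Control replicate 3 alone. Cep85l was at 0, 696 and 0 in the Control libraries and 254, 382 and 97.9 under CUS, where the Control value came from mmu_circRNA001045. Cep192, which recruits pericentriolar material, was at 0, 716 and 122 in the Control libraries and 0, 110 and 0 under CUS. In each of these hosts 1 or 2 libraries carried most of the level.

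Spag9, a scaffold of the JNK pathway that also binds kinesin-1 and dynactin, showed a difference between rings that the host sum did not. The host sum was 495, 2554 and 1944 in the Control libraries and 2768, 1434 and 921 under CUS, with close means of 1664 ± 1058 and 1708 ± 953 (SD, n = 3 each). Its ring mmu_circRNA001926 was at 495, 2554 and 1891 in the Control libraries and 693, 401 and 541 under CUS, a log2 difference of -1.27 with SE 0.75 (limma adjusted p = 0.872), and the groups overlapped through Control replicate 1. It carried 100%, 100% and 97.3% of the Spag9 level in Control and 25.0%, 28.0% and 58.7% in CUS, so the shares did not overlap. The other 4 rings were at 0 in Control except for mmu_circRNA001928, at 53.2 in replicate 3, and reached up to 1067 under CUS. This share was singled out after the values were seen and was not tested.

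Spag1, which helps assemble dynein arms, was at 555, 615 and 0 in the Control libraries and at 0 under CUS. Its 2 rings, mmu_circRNA003701 at 282 and 313 and mmu_circRNA003702 at 273 and 303, stayed within 5% of each other in both libraries. Whether these rings share reads was not tested. Spag17, of the central pair of beating cilia, was at 565 in CUS replicate 2 alone. Cfap54, also a central pair protein, was the 1 Cfap host above 0 in all libraries, at 50.7, 537 and 394 in the Control libraries and 416, 785 and 207 under CUS. The highest CUS value was the ring mmu_circRNA001243, seen nowhere else. Cfap36 was at 751 in Control replicate 1 alone, Cfap299 at 529 in Control replicate 2 alone, and Cfap69 at 287 in Control replicate 1 and 309 in CUS replicate 2. Apart from Cfap54, no Cfap host was above 0 in more than 2 libraries.

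Most of the rings were seen in 1 or 2 libraries. Of the 151 member circRNAs, 61 (40.4%) were above 0 in 1 library and 52 (34.4%) in 2, against 36.9% and 26.5% of all circRNAs. Only 5 (3.31%) were above 0 in all 6 libraries, against 7.55% of all, and these were the Nphp4, Kif21a, Bbs9, Cep350 and Spag9 rings given above. The 38 rings in at least 3 libraries carried 51.3% of the members' level, against 72.7% for such rings over the whole table. Those seen in Control only numbered 43 (28.5%, against 27.0% of all circRNAs) and those in CUS only 39 (25.8%, against 23.4%). By host, 12 were above 0 in Control only (23.5%, against 17.8% of all hosts) and 6 in CUS only (11.8%, against 14.7%). There were 20 pairs of rings of 1 host, in 9 hosts, whose levels came within 5% of each other in at least 1 library. Only the Spag1 pair did so in 2 libraries. Such rings may share reads and may not be independent of each other. Rings of different hosts had equal levels too, such as mmu_circRNA006723 of Ift80 and mmu_circRNA008597 of Dync1i1, both at 569 in Control replicate 3. Closeness of levels alone thus does not show shared reads, and how often unrelated rings come this close was not tested.

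**Figure D5:**
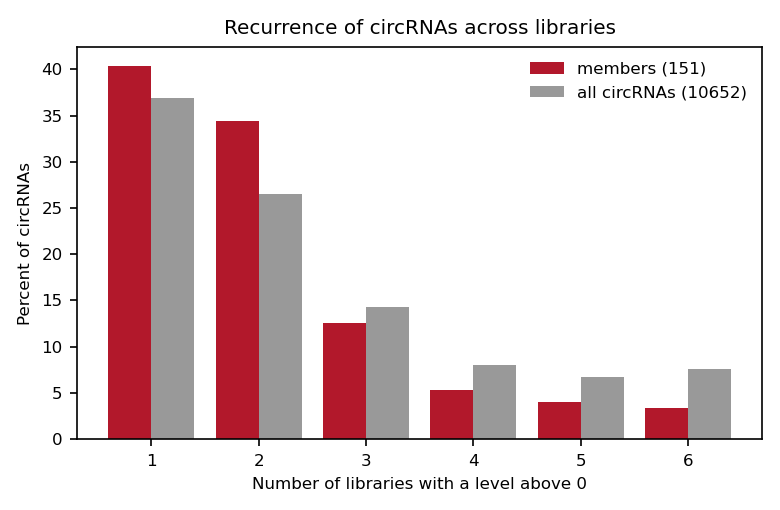
Percent of circRNAs above 0 in exactly 1 to 6 libraries, for the 151 members and for all 10652 circRNAs. Members are at 40.4% in 1 library and 3.31% in all 6, against 36.9% and 7.55% of all circRNAs.

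Other genes of the same structures were counted over lists chosen by function, with earlier results of these data known. Of 244 genes, 104 were hosts and 62 could be tested, with 25 fitted higher and 37 lower, 0 past the adjusted threshold in limma, and 4 higher and 1 lower at an unadjusted p under 0.05. That is 59.7% fitted lower, against 51.9% of all hosts tested, with 6.45% higher and 1.61% lower at that p, against 2.56% and 3.3%. Of the higher ones, Mphosph9, Ccdc66 and Mapre2 were at 0 in every Control library and could be tested only through their CUS values. The 6.45% rests largely on these genes, and their p-values are no added support for that pattern. Among 15 tested genes of the cilium, 8 (53.3%) were higher and 7 lower, where 48.1% of all hosts tested were higher. Rfx3, a ciliary transcription factor, was at 1195, 1788 and 1426 in the Control libraries and 4395, 2910 and 3158 under CUS, and the groups did not overlap. Alms1, mutated in Alström syndrome, was at 369, 209 and 0 in the Control libraries and 401, 476 and 1275 under CUS. On the lower side Tulp4 was at 1246, 2118 and 1144 in the Control libraries and 563, 543 and 712 under CUS, again without overlap. The adjusted p in limma was 0.708 for Rfx3 and 0.917 for Tulp4. The summed level of the 23 cilium hosts was 6656 to 7612 in the Control libraries and 7845 to 9898 under CUS, so the sums did not overlap. Without Rfx3 they were 5461 to 6046 in the Control libraries and 3449 to 6987 under CUS, which overlap, and leaving out any one of 4 other genes also gave an overlap. The Nek1 kinase was at 133, 358 and 314 in the Control libraries and 0, 0 and 342 under CUS. All 3 tested genes of the axoneme list were fitted higher, with small differences: Dnal1, a dynein light chain, was at 2267, 3127 and 1317 in the Control libraries and 1303, 3486 and 3482 under CUS.

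Of 14 tested centrosome genes 4 were higher and 10 (71.4%) lower, where 51.9% of all hosts tested were lower. Mphosph9 and Ccdc66, both centrosomal and ciliary, were listed at 0 in the Control libraries and at 604, 1635 and 492 and at 1052, 643 and 169 under CUS. These 2 (14.3%) were called higher at an unadjusted p under 0.05, against 2.56% of all hosts tested. The limma adjusted p was 0.708 for each. Both could be tested only through their CUS values. Rttn, needed for centriole elongation, was at 471, 524 and 343 in the Control libraries and 0, 756 and 0 under CUS, and Tubgcp5, of the gamma-tubulin ring, at 324, 993 and 0 and at 100, 0 and 0. Of 8 tested motor adaptors and dynactin genes 5 (62.5%) were higher and 3 lower, where 48.1% of all hosts tested were higher. Apart from Kifap3 their leading members overlapped between groups as well, such as the kinesin light chain Klc1 at 0, 550 and 0 in the Control libraries and 401, 207 and 209 under CUS and the lissencephaly gene Pafah1b1 at 0, 156 and 223 and at 0, 0 and 462.

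Of the 22 tested genes of the microtubule list 17 (77.3%) were fitted lower and 5 higher, with a median log2 difference of -0.52. Over all hosts tested 51.9% were fitted lower and the median was -0.05. Macf1, a spectraplakin that links microtubules to actin, was at 1219, 1145 and 774 in the Control libraries and 0, 460 and 329 under CUS. Ttll7, a tubulin polyglutamylase, was at 1135, 512 and 1330 in the Control libraries and 245, 659 and 0 under CUS. Mapre2, a protein of growing microtubule ends, went the other way, listed at 0 in the Control libraries and at 817, 118 and 554 under CUS. It could be tested only through these CUS values. The summed level of the 36 microtubule hosts was 17145 to 19036 in the Control libraries and 13577 to 15172 under CUS, so the sums did not overlap. No member of the list passed the adjusted threshold, and the list as a whole was not tested.

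The summed markers of astrocytes, of oligodendrocytes and of neurons were each higher on average in CUS, with overlapping ranges, and single markers went both ways. Of 3 tested hosts each, 2 astrocyte and 2 oligodendrocyte markers were fitted higher and 1 each lower. The astrocyte markers, 3 of 8 being hosts, summed to 1085 to 1525 in the Control libraries and 1462 to 2642 under CUS, and Slc1a3, Gfap, Aqp4 and Aldh1l1 were among those with no ring. Gpc5, 1 of the 3 astrocyte hosts, was lower without overlap, as were 5.53% of all hosts tested. It was at 377, 1056 and 801 in the Control libraries and 348, 296 and 179 under CUS. The oligodendrocyte markers, 5 of 11 being hosts, summed to 1374 to 2040 in the Control libraries and 2039 to 2989 under CUS, and Mog, Mobp, Mag, Cnp and Enpp2 were among those with no ring. Prr5l, an oligodendrocyte host, was fitted lower, at 616, 305 and 213 in the Control libraries and 0, 0 and 598 under CUS. The neuronal markers, 7 of 9 being hosts, summed to 5368 to 11866 in the Control libraries and 8943 to 11819 under CUS. Of 6 tested neuronal hosts 2 were fitted higher and 4 lower. Grin2b was among the higher, at 3264, 1044 and 1676 in the Control libraries and 5177, 4397 and 3221 under CUS (limma adjusted p = 0.708). The part of these cell types in the values of Nphp4, Cep112 and Kif3a was not tested.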

How the data were processed

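Per the labels, poly(A) RNA was selected in 2 rounds, and the libraries were stranded, carried molecular identifiers and were read from both ends. Rings have no poly(A) tail, and what this selection did to their recovery was not tested. The authors deposited 1 table of log10 values per circRNA and library with no unit in its header; the build mm9 and the tools StringTie, DESeq and edgeR are named in the submitters' processing notes, with no step tied to them. For ring calling, tool and settings are not given in the sources used here. In each library 100% of linear values under 300 steps lay within 0.05 of a whole multiple of 1 step, from a lowest value of 17 steps. Step sizes put the relative scale of the libraries between 81.9% and 100%.

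Host symbols came from GENCODE vM21 (GRCm38), matching 3667 of 3675 identifiers; positions are those of genes. Levels were summed per host over circRNAs with 1 identifier, and 786 with several and 658 with none were left out of host sums. The fit used R 4.3.3 with limma 3.58.1 (lmFit, then eBayes with a variance trend) on log2(level + 45.5). Here 45.5 is the lowest level above 0 in a library, as a median of the 6. The code was run on simulated hosts, above 0 in all 6 libraries and with less spread than is usual in these data. That run does not show how the fit performs on sparse rings. Tables used Python 3.11.15, pandas 2.3.3, numpy 2.4.6, scipy 1.17.1 and matplotlib 3.10.9. Named hosts were Dnah9, Kif3a, Cep112 and Nphp4, the 4 of highest mean in each family, the 2 of smallest p in each direction, and those at an unadjusted p under 0.05, each with its ring of highest mean. Members, lists and rules were chosen with earlier results of these data known. Alternatives changed the pseudocount, filter, trend, scaling, replicate block, host assignment and libraries.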

Additional observations from a re-analysis of the deposited data

How the results depend on the processing

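No circRNA and no host passed an adjusted p of 0.05 in limma under any of 13 alternatives for circRNAs and 14 for hosts, where the lowest adjusted p-values were 0.329 and 0.192. With 6 libraries and unknown read numbers, this does not show that levels were equal. Members at an unadjusted p under 0.05 numbered 2 circRNAs and 3 hosts as reported, 1 to 3 circRNAs and 1 host when 1 library was left out, and 1 of 5 circRNAs and 1 of 11 hosts when only those above 0 in all 6 libraries were tested. Over all alternatives the host count was 1 to 4. Log2 differences kept their direction for the host sums of Nphp4 (1.35 to 2.44), Cep112 (0.83 to 2.19), Kif3a (-4.44 to -1.45) and Dnah9 (-0.85 to -0.24), under every alternative in which each was tested. The filter, trend and replicate block alternatives cannot move these estimates, so they are no check of direction. For Nphp4, whose groups did not overlap, leaving out a library or changing the pseudocount could not reverse the sign either. Kif3a could not be tested with the filter on all 6 libraries.

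Among all tested named members 31 fitted differences reversed and 403 did not, most of the reversals with 1 library left out. The 403 include the filter, trend and replicate block alternatives, which could not reverse any. With 1 library left out, log2 differences ran from -0.33 to 0.40 for the Bbs9 host sum, -0.98 to 0.30 for Cep350, -0.12 to 2.30 for Cep63, -0.14 to 1.16 for Cfap54, -0.19 to 0.67 for Dync1i1, -1.40 to 0.32 for Dync1li1, -0.79 to 0.41 for Dync2h1, -1.39 to 0.69 for Ift81, -1.93 to 0.028 for Kif16b, -1.82 to 0.33 for Kif1a and -0.52 to 0.62 for Spag9. For single rings they ran from -0.46 to 0.38 for mmu_circRNA000594 of Cep350, -0.10 to 1.76 for mmu_circRNA001689 of Dnah9, -1.26 to 0.83 for mmu_circRNA003094 of Kif2a and -0.76 to 1.67 for mmu_circRNA010881 of Cep63. Quantile normalization turned mmu_circRNA000594 to 0.065 and mmu_circRNA003094 to 0.33, 5 times the pseudocount turned mmu_circRNA003094 to 0.13, and adding rings with several identifiers turned the Ift81 host sum to 0.39. The directions of these members are therefore not given as results, and the cause was not tested.

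The ratio of the members' summed level, CUS over Control, was 1.01 and ran from 0.836 to 1.18 when 1 library was left out, so its direction depends on the library. Same-numbered libraries showed no shared deviation (correlations of -0.011, -0.025 and -0.020), and differently numbered ones had values as small (-0.009 to 0.029). A weak pairing could be missed by this measure in sparse data, so whether the numbers pair the libraries is not known. With the replicate block limma called 0 circRNAs and 0 hosts.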
